A study of Mus musculus with 12 samples.

Results

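The Myc and Myb loci were described by their peaks of accessible chromatin. The members are 106 of the 84243 peaks in the master peak-list (0.126%). They comprise every peak that HOMER, the annotation program, assigned to Myc, Mycn, Mycl, Pvt1, Myb or Hbs1l as the nearest promoter. Added to these were all peaks from 100 kb upstream to 2 Mb downstream of the transcription start site (TSS) of Myc, and all peaks in the 150 kb upstream of the TSS of Myb. The Myc window held 68 peaks and the Myb upstream window held 16. A member gene was named in 45 rows, of which 18 lay in the Myc window, 5 in the Myb window and 22 outside both. The other 50 peaks of the Myc window and 11 of the Myb window named another gene.

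Accessibility was measured by ATAC-seq, in which a transposase inserts sequencing adapters into exposed DNA. The 12 samples were 2 replicates each of hematopoietic stem cells (HSCs), megakaryocyte progenitors (MkPs), erythrocyte progenitors (EPs), granulocyte/macrophages (GMs) and B cells from bone marrow, and of T cells from thymus. The cells were sorted by surface markers from wild-type C57BL/6 mice aged 8 to 12 weeks, with no treatment or added allele in any group. The list is pooled over all 12 samples, with 1 position per peak and no reads, so the depth behind each peak is unknown and a peak cannot be assigned to a cell type. No marker check of the labelled cell types, no level per cell type and no test between groups or replicates was therefore possible. A peak states that the site passed peak calling in at least 1 cell type.

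MYC and MYB are transcription factors that blood progenitors need in order to proliferate and self-renew. MYC binds E-box sequences as a dimer with MAX, and drives ribosome production and cell growth. MYB binds DNA with a short core motif, recruits the coactivators CBP and p300, and is shut down as blood cells mature. Both genes are known for control by distant enhancers. Myc is followed by the long noncoding RNA gene Pvt1 and by a wide stretch with few genes, which holds enhancers used in blood cells far downstream. Enhancers of Myb lie in the interval that separates it from its neighbour Hbs1l, whose protein helps to rescue stalled ribosomes.

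Sequences are given for the peaks outside promoters that held the most of 14 families of binding motifs, 4 from each window. They were picked for many families, where the median non-promoter peak of the list held 3. Motifs that sit together in them therefore do not describe the other distal sites. A promoter peak has its centre within 500 bp of a TSS, and a non-promoter peak does not. Each sequence is the central 300 bp of a 499-bp peak on the plus strand of mm10, in lower case with motif matches in capitals. The GATA family, bound by factors of erythroid and megakaryocyte cells and of HSCs, was searched as AGATAA and also as TGATAA. The composite of TAL1 with a GATA factor was searched as CTGNNNNNNNNGATA. For RUNX factors the string was TGTGGT, and for ETS factors it was AGGAAG. PU.1, the ETS factor of myeloid and B cells, was given the longer string GAGGAAGT, which contains that of the ETS family, and C/EBP factors of granulocytes were given TTGCNNAA. Of the E-boxes, E-box A was CACGTG, favoured by MYC with MAX, while E-box B was CAGCTG and the remaining E-box C was CAGGTG. The core motif of MYB itself was written as TAACNG. For AP-1 the strings were TGACTCA and, differing in the middle base, TGAGTCA. TCF factors were given CTTTGAT, and RBPJ, the factor of Notch signalling, was given GTGGGAA. The insulator protein CTCF was searched by its consensus. Both strands were searched without mismatch, and matches of different families may overlap. A match is a string of letters and not a measured binding site.

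From the Myc window, the peaks are named by the distance of their centre downstream of the Myc TSS.
Myc 46.8 kb downstream, chr15:62031948-62032247: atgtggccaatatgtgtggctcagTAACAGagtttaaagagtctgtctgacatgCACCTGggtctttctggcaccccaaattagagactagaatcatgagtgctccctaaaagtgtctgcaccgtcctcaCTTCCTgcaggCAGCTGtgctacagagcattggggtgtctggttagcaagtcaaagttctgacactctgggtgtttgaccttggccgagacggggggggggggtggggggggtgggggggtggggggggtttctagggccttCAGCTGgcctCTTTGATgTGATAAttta
Myc 900 kb downstream, chr15:62885358-62885657: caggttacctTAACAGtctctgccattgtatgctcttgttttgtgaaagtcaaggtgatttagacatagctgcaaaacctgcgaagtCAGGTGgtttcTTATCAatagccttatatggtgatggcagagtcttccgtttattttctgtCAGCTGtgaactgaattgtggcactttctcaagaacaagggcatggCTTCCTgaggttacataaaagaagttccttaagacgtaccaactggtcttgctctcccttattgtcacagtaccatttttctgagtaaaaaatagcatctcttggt
Myc 408 kb downstream, chr15:62392942-62393241: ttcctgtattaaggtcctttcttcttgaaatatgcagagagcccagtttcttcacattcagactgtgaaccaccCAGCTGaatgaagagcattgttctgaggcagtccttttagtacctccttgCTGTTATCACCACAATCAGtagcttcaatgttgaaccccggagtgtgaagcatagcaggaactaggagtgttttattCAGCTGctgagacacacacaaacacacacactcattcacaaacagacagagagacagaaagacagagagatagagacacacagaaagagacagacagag
Myc 1674 kb downstream, chr15:63659437-63659736: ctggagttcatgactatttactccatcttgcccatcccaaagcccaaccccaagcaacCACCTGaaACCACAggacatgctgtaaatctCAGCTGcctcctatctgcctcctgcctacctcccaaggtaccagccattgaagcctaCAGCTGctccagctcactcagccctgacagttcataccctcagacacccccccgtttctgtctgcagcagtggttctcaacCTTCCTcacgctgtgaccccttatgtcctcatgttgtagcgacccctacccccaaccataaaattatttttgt

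The peak 46.8 kb downstream, between Myc and Pvt1, held matches of 7 families, which in the part shown were GATA, ETS, E-box B, E-box C, MYB and TCF. The peak at 900 kb also held 7 families, with its E-box B match 1 bp from the peak centre. In the peak at 408 kb, MYB, GATA, TAL1-GATA and RUNX matches overlapped in the continuous capitals from base 62393066 to base 62393084. The peak at 1674 kb held RUNX, ETS, both E-box B and E-box C, MYB and RBPJ, and no GATA match. Its MYB and RBPJ matches fell outside the part shown.

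From the Myb window, the peaks are named by the distance of their centre upstream of the Myb TSS.
Myb 74.4 kb upstream, chr10:21235244-21235543: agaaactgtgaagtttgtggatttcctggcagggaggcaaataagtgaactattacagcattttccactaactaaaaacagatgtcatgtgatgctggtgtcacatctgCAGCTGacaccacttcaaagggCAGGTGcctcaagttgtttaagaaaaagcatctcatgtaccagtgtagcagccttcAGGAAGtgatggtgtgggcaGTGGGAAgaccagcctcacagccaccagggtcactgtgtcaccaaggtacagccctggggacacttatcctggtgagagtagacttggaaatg
Myb 91.4 kb upstream, chr10:21252186-21252485: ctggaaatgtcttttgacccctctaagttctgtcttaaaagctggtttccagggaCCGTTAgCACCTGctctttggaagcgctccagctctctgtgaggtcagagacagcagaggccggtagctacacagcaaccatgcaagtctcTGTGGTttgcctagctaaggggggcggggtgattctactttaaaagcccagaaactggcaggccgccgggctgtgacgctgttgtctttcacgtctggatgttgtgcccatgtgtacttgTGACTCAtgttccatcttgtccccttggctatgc
Myb 35.8 kb upstream, chr10:21196671-21196970: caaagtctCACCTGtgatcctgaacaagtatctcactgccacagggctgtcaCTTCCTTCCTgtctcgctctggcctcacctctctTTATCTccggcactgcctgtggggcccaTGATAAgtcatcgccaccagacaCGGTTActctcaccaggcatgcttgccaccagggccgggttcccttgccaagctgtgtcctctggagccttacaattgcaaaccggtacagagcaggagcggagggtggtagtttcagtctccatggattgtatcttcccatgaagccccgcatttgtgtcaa
Myb 67.7 kb upstream, chr10:21228532-21228831: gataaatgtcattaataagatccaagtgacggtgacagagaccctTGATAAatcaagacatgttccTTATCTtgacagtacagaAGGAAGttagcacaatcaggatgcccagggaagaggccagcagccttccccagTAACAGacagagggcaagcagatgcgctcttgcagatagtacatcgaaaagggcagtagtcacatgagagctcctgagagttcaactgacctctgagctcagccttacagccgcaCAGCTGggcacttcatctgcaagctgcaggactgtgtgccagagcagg

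The peaks at 35.8 and 67.7 kb each held 3 GATA, 2 ETS and 1 MYB match, and in both the MYB match lay 10 bp from the peak centre. In each, 1 GATA match fell outside the part shown, as did 1 ETS match at 67.7 kb. In the peak at 91.4 kb a RUNX match lay 1 bp from the centre. The 2 TCF matches of the peak at 74.4 kb fell outside the central part.

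The promoter of Myb is shown next, and a peak covered it whole. It is the 250 bases before the TSS in the RefSeq promoter table of GRCm38.p6, on the minus strand, chr10:21160985-21161234. Of the 6 member genes, 4 were matched in that table by symbol, and Myc and Pvt1 were not.
Myb promoter: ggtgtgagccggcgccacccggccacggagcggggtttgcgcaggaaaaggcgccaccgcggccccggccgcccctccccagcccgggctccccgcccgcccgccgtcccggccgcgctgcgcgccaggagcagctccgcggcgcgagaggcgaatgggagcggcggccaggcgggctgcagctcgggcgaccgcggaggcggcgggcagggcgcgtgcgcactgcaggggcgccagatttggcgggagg

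These 250 bases had a GC content of 81.2% and no match to any of the 14 families. The 499-bp peak that covered them held 1 MYB match. Among 32851 RefSeq promoters cut to the same length, the share with a match ranged from 0.804% for CTCF to 29.5% for ETS.

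Each of the 6 member genes had a promoter peak, with 2 each at Mycl and Pvt1. With 1 at the noncoding RNA gene Gm33619, 9 of the 106 peaks were promoter peaks. The Myc promoter peak (chr15:61985193-61985691) was centred 101 bp downstream of the TSS, in the 5′ UTR of exon 1, and held 1 E-box B match. Myc was the nearest promoter of 4 further peaks. They lay 3699 and 1936 bp upstream, 1857 bp downstream on a CpG island in intron 1, and 14471 bp downstream, past the end of the gene. Both upstream peaks of the 100 kb thus lay within 3699 bp of the TSS, and none was listed farther upstream in the window.

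Mycn, the paralog best known from neural progenitors and also expressed in HSCs, had a promoter peak 3 bp upstream of its TSS and a second peak 732 bp upstream. One lay in intron 2, at 2696 bp. The remaining rows of Mycn were intergenic, at 17.2 and 132 kb downstream and 108 kb upstream. Mycl, another paralog, had promoter peaks 234 bp upstream and 406 bp downstream, the latter in the 5′ UTR of exon 1. Its other peaks lay 1130 bp downstream in intron 1 and 4585, 8106 and 10640 bp upstream, the first of these upstream peaks on a LINE element. By HOMER's assignment the peaks of Mycl thus reached 10.6 kb from the TSS and those of Mycn 132 kb. These ranges depend on neighbouring genes. A peak 18.3 kb downstream of the Mycl TSS was assigned to Trit1. By the nearest curated RefSeq TSS, the Mycn peaks at 17.2 and 132 kb were assigned to Gm40271 and Gm35155, which left Mycn with 4 rows.

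Myb had 9 rows. Its promoter peak (chr10:21160825-21161323) was centred 90 bp upstream of the TSS. Inside the gene, 3 peaks lay in intron 1, at 982, 1874 and 2713 bp, and the first 2 of them were on a CpG island. Further peaks lay in intron 3 at 7235 bp, intron 5 at 9443 bp, exon 10 at 15906 bp and intron 15 at 32596 bp. The last row was intergenic, 48110 bp downstream of the TSS and past the end of the gene. Hbs1l had a promoter peak 34 bp downstream of its TSS, 3 peaks in the interval towards Myb and 2 in the class of transcription termination sites, at 17938 and 22945 bp downstream.

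**Figure D1:**
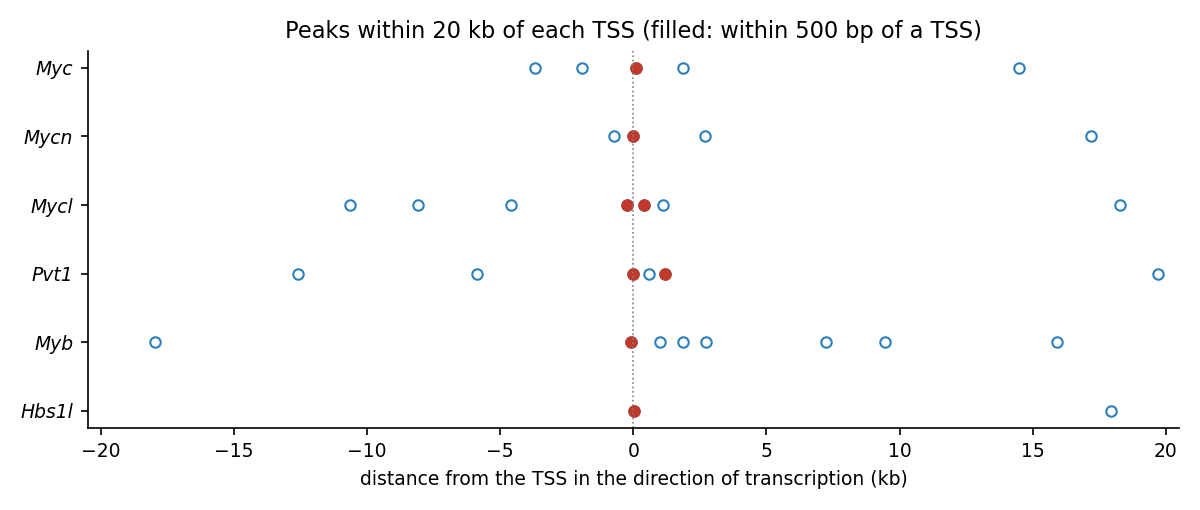
Peaks within 20 kb of the TSS of each member gene, by distance from the TSS in the direction of transcription in kb (one row per gene, one circle per peak, filled within 500 bp of a TSS). Mycl and Myb had 7 and 8 peaks in this range, Hbs1l had 2, and each gene had at least 1 filled circle.

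Across the list 19040 genes were named as nearest promoter, with a median of 3 rows per gene. Pvt1 had 13 rows, a number that 5.91% of named genes reached. Myb reached 9 rows, as did 12.8% of genes, and Mycn, Mycl and Hbs1l had 6 each (24.5%). Myc itself had 5 rows, a number that 31.8% of the genes reached. With 68 peaks in its window, Myc was thus the member with the fewest rows.

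Pvt1, which gives rise to long noncoding RNAs, had promoter peaks 3 and 80 bp upstream of 2 of its TSSs, and another peak 571 bp from the former. Of its 13 rows, 8 were intronic and reached 88.7 kb from the TSS HOMER used. The gene body held 22 peaks, or 99.0 per Mb, compared with 31.8 per Mb over the genome. The genome value includes intergenic sequence, and the density in other gene bodies was not computed. Between the end of Myc and the start of Pvt1 there were 4 peaks in 47.6 kb. From the end of Pvt1 to the nearer end of Gsdmc, a gasdermin gene, 35 peaks lay in 1516 kb, or 23.1 per Mb. The 209 kb from there to the end of the window held 3.

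**Figure D2:**
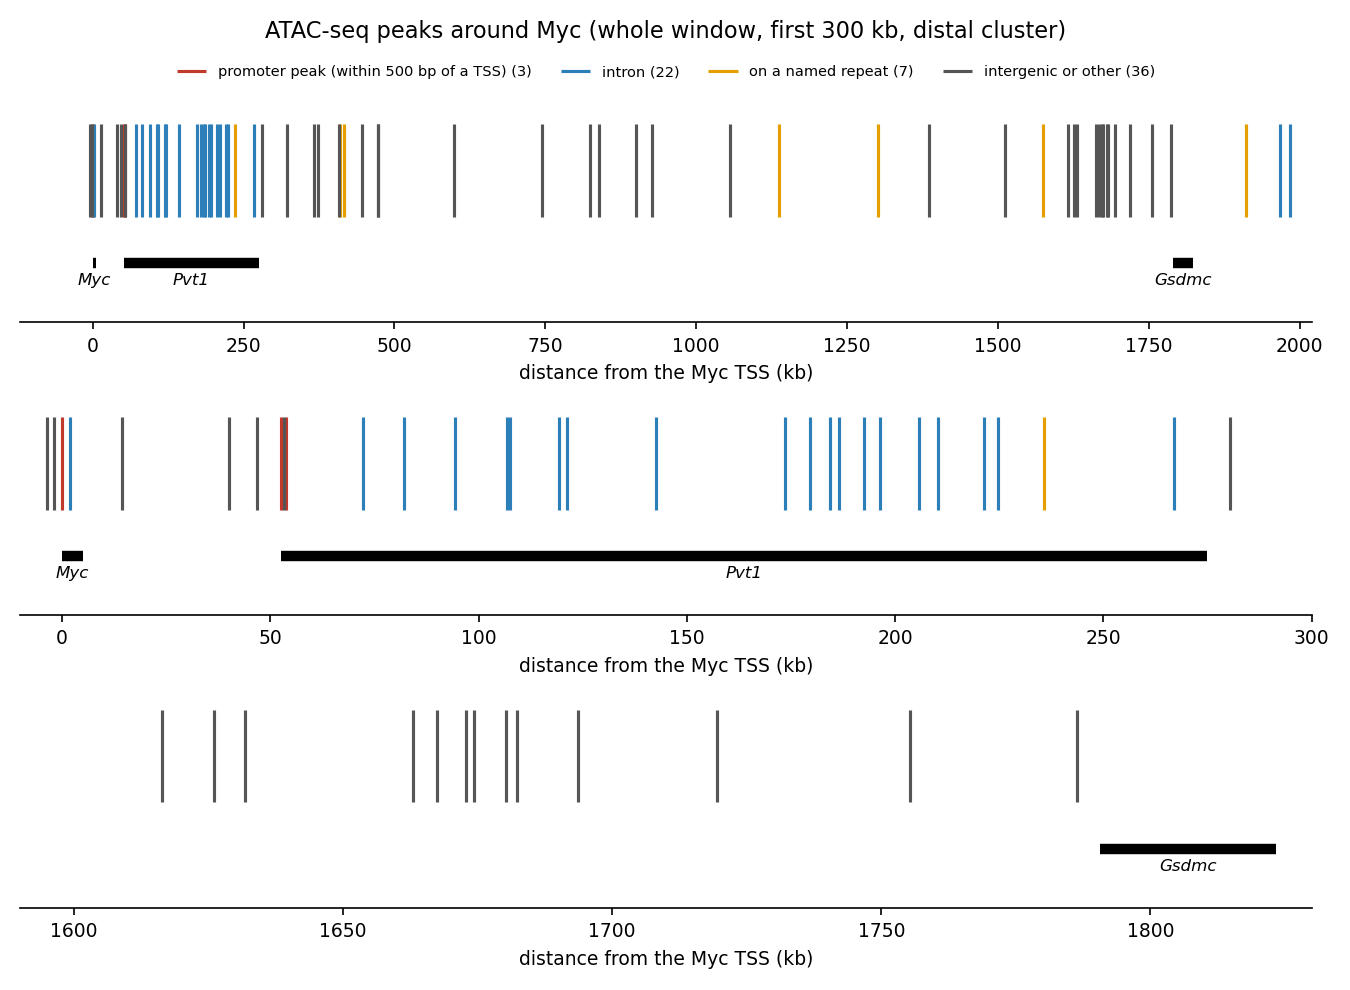
Positions of the peaks around Myc by distance from its TSS in kb, for the whole window (top, 68 peaks), the first 300 kb (middle) and the distal part near Gsdmc (bottom). Each vertical line is a peak coloured by class and black bars are genes; peaks were dense from Myc through Pvt1, sparse from 500 to 1600 kb, and dense again around 1674 kb.

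The peaks of the Myc window were counted by distance from Myc. Within 300 kb of the TSS lay 31 peaks (45.6%), 21 of them in introns. Of the 37 peaks farther downstream 34 were intergenic, and 22 of the 37 lay more than 1 Mb from Myc. In bins of 100 kb, the first and the second bin downstream held 11 peaks each (9.52% of the 21 bins), and 7.18% of the 27247 bins of the genome held as many or more. The bin from 1600 to 1700 kb held 10 peaks, while no bin from 500 to 1600 kb held more than 2. The median bin of the genome held 1 peak, and 8 of the 21 bins in the window held 1 or 0 (38.1%), compared with 52.3% of bins in the genome. Genome bins were drawn over whole chromosomes, unsequenced bases included, so some of them could hold no peak. The longest interval without a peak spanned 162939 bp, from 1138 to 1301 kb downstream.

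**Figure D3:**
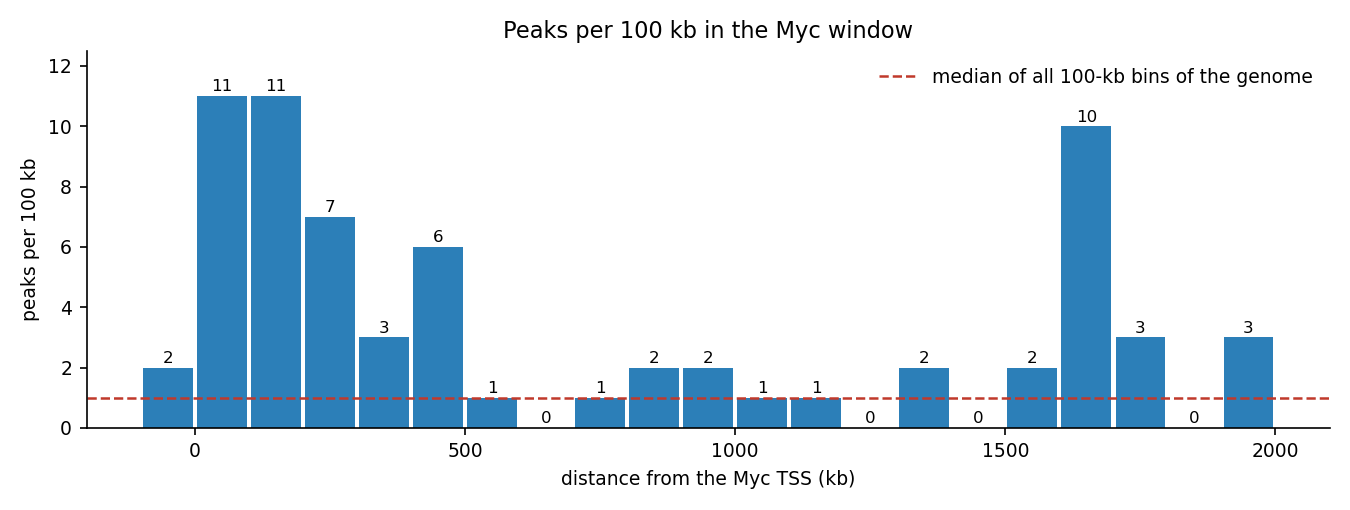
Number of peaks in each 100-kb bin of the Myc window, by distance from the Myc TSS in kb, with the median of all 100-kb bins of the genome as a dashed line. The bins from 0 to 300 kb held 11, 11 and 7 peaks, and the bin from 1600 to 1700 kb held 10.

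Peaks were joined into a cluster where neighbouring centres were at most 10 kb apart. The cluster with the most peaks held 8 over 36.7 kb, from 174 to 210 kb downstream of Myc, all in introns of Pvt1 and none on a repeat (chr15:62158713-62195871). At a gap of 5 kb it split into runs of at most 3 peaks, and the 4 peaks at Myc itself were then the largest cluster of the window. Of all non-promoter peaks of the list, 65.0% held ETS, 41.5% GATA, 32.9% E-box C, 43.0% MYB and 42.5% RUNX. In this cluster ETS matches were found in 7 of the 8 peaks, GATA and E-box C in 5 each, MYB in 3 and RUNX in 1. The peak at 206 kb, the member of the cluster without ETS, held 3 GATA matches beside C/EBP, E-box C and MYB. The peak at 210 kb held GATA, ETS, PU.1 and C/EBP, and that at 187 kb held GATA, ETS and 2 matches each of E-box B and C. GATA, ETS and E-box B were found at 174 kb, and GATA, ETS, E-box C and TCF at 184 kb. The peak at 180 kb held ETS, C/EBP, E-box C, MYB and TCF, that at 193 kb held RUNX, ETS and MYB, and that at 196 kb held 3 ETS matches and E-box C.

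The second cluster held 6 peaks over 19.4 kb, from 1663 to 1682 kb downstream, all intergenic and none on a repeat (chr15:63648081-63667963). At the 5 kb gap it split into runs of 2. ETS and E-box B matches were found in 4 of the 6 peaks each, where the list's shares were 65.0% and 30.4%. E-box C was found in 3 (list 32.9%), RUNX and MYB in 2 each (list 42.5% and 43.0%) and GATA in 1. RUNX and ETS matches opened the cluster at 1663 kb, followed by GATA and both E-boxes at 1667 kb and by ETS, C/EBP, E-box B and MYB at 1673 kb. The peak at 1674 kb, shown above, held 6 families. ETS, PU.1, E-box B and AP-1 were found at 1680 kb, and a single E-box C match at 1682 kb. Set side by side, GATA matches occurred in 5 of 8 peaks of the intronic cluster and in 1 of 6 of the distal one, with the list's 41.5% between these shares, and no test of that difference was made. Of 39958 clusters in the genome, single peaks counted, 2.75% had 8 or more peaks and 5.89% had 6 or more.

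A further 5 peaks clustered at the Pvt1 promoter, from 40.1 to 53.8 kb, and 4 at Myc itself, from 3699 bp upstream to 1857 bp downstream. In 3 peaks from 408 to 416 kb the first was the peak with overlapping MYB, GATA and RUNX matches shown above, and 2 lay on repeats. The TAL1-GATA composite occurred in 4 of the 65 non-promoter peaks of the window (6.15%), compared with 6.17% of the list's non-promoter peaks. They lay at 366, 408, 410 and 1386 kb.

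Which gene a distal peak was assigned to depended on the rule. HOMER named Myc for 5 of the 68 peaks in its window (7.35%), and so did the nearest curated RefSeq TSS. HOMER named H2afy3, a pseudogene inside Pvt1, for 26, Pvt1 for 13, the noncoding RNA gene Gm20740 for 11 and Gsdmc for 10. When TSSs were limited to protein-coding genes, Myc was nearest for 45 peaks and Gsdmc for 20. The basal plus extension rule, which lets a gene's domain reach up to 1 Mb until it meets a neighbour, linked 46 peaks to Myc and 23 to Gsdmc. The 6 peaks of the distal cluster lay 141 to 160 kb from the Gsdmc TSS and were assigned to Gsdmc by HOMER and by both of these rules. By the nearest curated RefSeq TSS, noncoding genes included, all 6 were assigned to the long noncoding RNA gene 4930449C09Rik, 50.6 to 70.0 kb away.

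Of the 16 peaks of the Myb window, 13 were non-promoter peaks. After the Myb promoter came a cluster of 6, from 18.0 to 35.8 kb upstream (chr10:21178713-21197070). It surrounded Gm33619, a noncoding RNA gene, with 1 peak centred 21 bp from the TSS of that gene and another 803 bp from it. The first of the cluster, at 18.0 kb, held GATA and ETS matches. At 25.2 kb RUNX, ETS and MYB matches were found, and the Gm33619 promoter peak at 25.9 kb held 2 GATA matches, ETS, C/EBP and the TAL1-GATA composite. GATA, MYB and TCF followed at 28.2 kb, ETS and E-box C on a LINE element at 31.7 kb, and at 35.8 kb the GATA, ETS, E-box C and MYB matches shown above. ETS matches were thus found in 5 of these 6 peaks and GATA in 4, compared with 65.0% and 41.5% of the list's non-promoter peaks. Both counts include the Gm33619 promoter peak. Over all peaks of the list, promoter peaks included, the shares were 62.4% and 37.1%.

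The second cluster held 5 peaks from 63.4 to 74.4 kb (chr10:21224099-21235643), 2 of them on repeats, a DNA transposon and an LTR element. MYB matches were found in 4 of the 5 peaks, ETS in 4 and GATA in 2, where the list's shares were 43.0%, 65.0% and 41.5%. RUNX, ETS, C/EBP and MYB matches were found at 63.4 kb, and RUNX, MYB and 4 ETS matches at 65.4 kb. The LTR peak at 67.7 kb held GATA, ETS, E-box B and MYB. The peak at 72.5 kb held 3 MYB matches and no other family, and the peak at 74.4 kb was the one without a MYB match.

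Beyond it lay 2 peaks at 87.8 and 91.4 kb, the first with ETS, MYB, TCF and RBPJ, the second with RUNX, E-box B, E-box C, MYB and AP-1. A single peak followed at 108 kb, with GATA, C/EBP and 2 RUNX matches, and the Hbs1l promoter peak at 135 kb closed the series with an E-box B match. HOMER assigned 11 of the 16 peaks to Gm33619, 4 to Hbs1l and 1 to Myb. With protein-coding genes alone, 9 were nearest to Myb and 7 to Hbs1l, and the basal plus extension rule linked 15 to each.

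**Figure D4:**
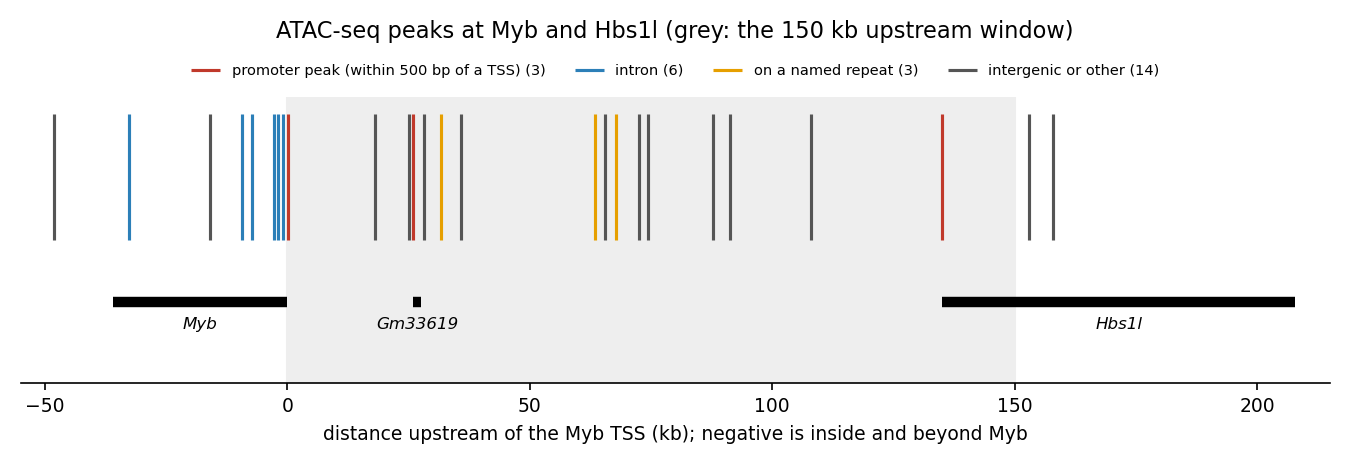
Positions of the peaks at Myb and Hbs1l by distance upstream of the Myb TSS in kb, with negative values inside and beyond Myb. Each vertical line is a peak coloured by class, black bars are genes and the grey field is the 150 kb window, in which the 16 peaks fell into clusters of 6 and 5 and 5 more peaks.

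The Myc window held 32.4 peaks per Mb, 1.02 times the 31.8 per Mb of the genome. Chromosome 15 as a whole had 35.1 per Mb. The same window drawn at Mycn held 61 peaks (29.0 per Mb), with a longest interval of 692117 bp without a peak. At Mycl it held 109 peaks (51.9 per Mb), but that window contained 33 protein-coding genes and 23 promoter peaks, compared with 6 genes and 3 promoter peaks at Myc. Counting non-promoter peaks alone, the values were 31.0 per Mb at Myc, 26.7 at Mycn and 41.0 at Mycl. The Myb window held 107 peaks per Mb, 3.35 times the genome, and 86.7 per Mb without promoter peaks. The 150 kb upstream of the relatives Mybl1 and Mybl2 held 13 and 12 peaks. These were 86.7 and 80.0 peaks per Mb, or 2.72 and 2.51 times the genome. Without promoter peaks the values were 53.3 and 60.0 per Mb. The genome had 26.8 non-promoter peaks per Mb. These are single windows, and no test of their differences was made.

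Of the 97 non-promoter members 58 (59.8%) were intergenic and 32 (33.0%) intronic, compared with 44.6% and 48.0% of the 71072 non-promoter peaks in the list. Their median distance to the nearest TSS was 43643 bp, compared with 22261 bp. The rule itself reaches far from TSSs, so nothing is read from these distances and classes. A repeat was named for 11 of them (11.3%, 95% Wilson interval 6.45 to 19.2%), compared with 17.9% of the list, which lay inside that interval. Intervals cover counting error only. The median GC content was 45.9%, compared with 47.7%. Over all peaks of the Myc window it was 49.5% for those within 300 kb of Myc and 42.9% for those farther downstream.

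ETS matches were the most frequent, in 68 of 97 non-promoter members (70.1%), compared with 65.0% of the list's 71072 non-promoter peaks. MYB followed with 45 members (46.4%, list 43.0%), GATA with 41 (42.3%, list 41.5%), E-box B with 38 (39.2%, list 30.4%) and RUNX with 33 (34.0%, list 42.5%). E-box C was found in 25 members (25.8%, list 32.9%) and C/EBP in 17 (17.5%, list 20.7%). The list's share lay inside the 95% Wilson interval of the members for each of these 7 families.

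TCF was found in 13 members (13.4%, interval 8.00 to 21.6%) and in 7.46% of the list. The other families were found in fewer peaks: PU.1 in 11 members (11.3%, list 10.2%), E-box A in 9 (9.28%, list 8.42%), AP-1 in 8 (8.25%, list 11.8%), RBPJ in 8 (8.25%, list 10.8%), the TAL1-GATA composite in 4 (4.12%, list 6.17%) and CTCF in 4 (4.12%, list 8.74%). Of the 14 families, TCF was the 1 whose interval left out the share of the list. In the Myc window that held for E-box B, in 28 of 65 peaks (43.1%, interval 31.8 to 55.2%). In the Myb window it held for TCF, in 3 of 13 peaks (23.1%, interval 8.18 to 50.3%). These intervals were not adjusted for 14 families and neighbouring peaks are not independent, so no difference from the list is claimed.

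The MYB motif was found in 9 of the 13 non-promoter peaks upstream of Myb (69.2%, interval 42.4 to 87.3%) and in 27 of 65 in the Myc window (41.5%). The list's 43.0% lay inside the interval of the peaks upstream of Myb. E-box A, the motif of MYC and MAX, was found in 4 of the 65 non-promoter peaks of the Myc window (6.15%), compared with 8.42% of the list. It was found in 0 of the 13 upstream of Myb. PU.1, the composite and CTCF were also found in 0 of those 13, and the interval for 0 reached 22.8%.

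**Figure D5:**
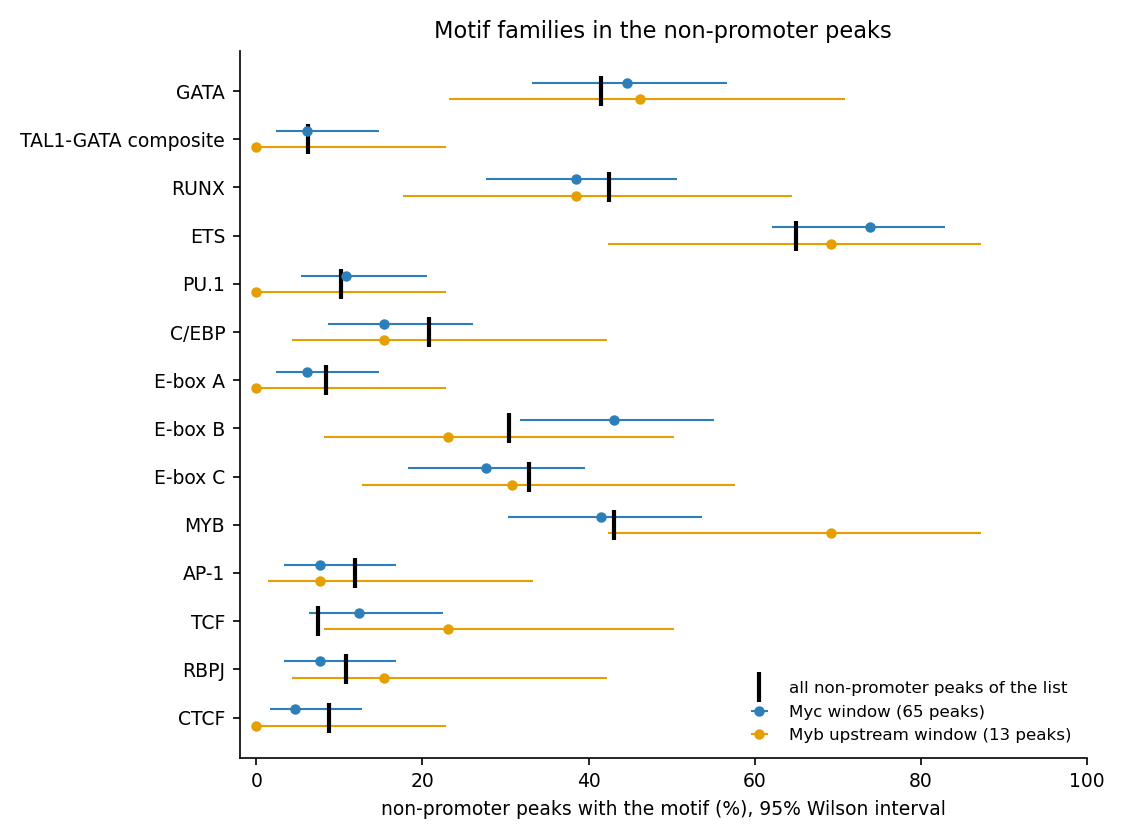
Percentage of non-promoter peaks with each of 14 motif families, with 95% Wilson intervals, in the Myc window (blue, 65 peaks) and the Myb upstream window (orange, 13 peaks); black bars mark all non-promoter peaks of the list. The black bar lay outside the interval for E-box B in the Myc window and for TCF in the Myb window.

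All 13 genes of the MYC and MAX network that were looked up had a promoter peak, as did 4 of 4 relatives and partners of MYB, compared with 64.5% of all genes named in the list. The genes looked up are all protein-coding, whereas those named in the list include noncoding genes and pseudogenes, so these shares are not alike. Max, the obligate partner of MYC, was named in 23 rows, a number that 1.30% of genes reached, with 14 of them intergenic and the farthest at 133 kb. Fbxw7, the ubiquitin ligase subunit that marks MYC for degradation, had 18 rows, 11 of them intronic. Among the MAX partners that oppose MYC, Mxi1 had 12 rows with 4 promoter peaks, Mnt 8, Mxd4 7, Mxd1 5 and Mxd3 3. Mga had 3 rows.

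Mlx, which forms dimers with the glucose-responsive factors of this family, had 1 row, its promoter peak, and its partners Mlxip and Mlxipl had 7 and 3. Zbtb17, which encodes the MYC partner MIZ1, had 4 rows and Trrap, a coactivator scaffold bound by MYC, had 2. Of the MYB list, Ep300, which encodes the coactivator p300, had 10 rows and Crebbp, which encodes CBP, had 5. The relatives Mybl1 and Mybl2 had 2 and 3 rows, compared with 9 for Myb.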

How the data were processed

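The authors processed the ATAC-seq reads of all 12 samples with the ENCODE pipeline on mm10, leaving out multimapping reads. Reproducible peak-lists of the 6 cell types were joined, reduced to peaks without overlap by chromVAR, and annotated by HOMER 4.10.2. The deposited table is this single pooled list. Start, end and distance to the TSS are in bp, without normalization. A score column, deposited by the authors, held 0 in each row and was left aside. With no reads per peak, depth and replicate error are unknown and no test was run.

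Members were the rows naming the 6 genes plus the peaks that overlapped either window, drawn from RefSeq Select TSSs, or from the most upstream curated TSS for Pvt1. The members, gene lists and motifs were chosen with earlier results of these data known. Described one by one were peaks at member TSSs, all peaks upstream of Myb and the 2 clusters with the most peaks in the Myc window. Sequences shown were the 4 non-promoter peaks per window with the most motif families, ties going to more sites, and the Myb promoter. Positions and sequence came from RefSeq GRCm38.p6, the assembly of mm10. Exact motif strings were searched on both strands, after a test on simulated data. Alternatives concerned the window edge and TSS, the gene assigned, the promoter width, the cluster gap, the peaks counted, the repeat annotation and the part of the peak searched. Tables were handled in pandas 2.3.3 under Python 3.11.15, intervals came from scipy 1.17.1, medians from numpy 2.4.6 and plots from matplotlib 3.10.9.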

Additional observations from a re-analysis of the deposited data

How the results depend on the processing

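Of 20 alternative values for the main counts and shares, 14 kept within 1.5 times the count, or within the interval of the share. The gene assigned moved most. Myc was named for 5 of the 68 peaks in its window by HOMER, for 45 by the nearest protein-coding RefSeq Select TSS and for 46 by the basal plus extension rule. Myb was named for 1 of its 16 upstream peaks, and for 9 and 15 under the same rules. With a cluster gap of 5 kb the largest cluster of the Myc window held 4 peaks in place of 8. The share of non-promoter members on a repeat, 11.3% by HOMER's annotation of the peak, was 0% when most of the bases had to be soft-masked, a measure by which 4.17% of the list's non-promoter peaks were on a repeat. Searching the central 200 bp lowered the share of members with a match for 13 of the 14 families, CTCF being the exception, as fewer bases were searched, and 6 families in place of 7 were then above the list. TCF, whose interval over the whole peak left out the list's share, was then found in 4 members (4.12%), compared with 2.89% of the list. No paired analysis was possible because the list holds no values per sample. For the same reason no replicate could be left out. The list does not give depth, so a site without a peak may be closed or below detection, and accessibility in 1 cell type cannot be told from accessibility in all.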
